A study of Homo sapiens with 18 samples.

Results

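The aminoacyl-tRNA synthetases and the scaffold proteins that hold some of them together are described here in cultured human lung cells exposed to 2 nanomaterials. The members were chosen by gene symbol: symbols made of a letter followed by ARS, with or without a final 1 or 2, the bifunctional EPRS, the 2 subunits FARSA and FARSB, and the scaffold genes AIMP1, AIMP2 and EEF1E1. The rule found 40 of the 36576 genes in the expression table: 20 cytosolic synthetase genes, 17 mitochondrial synthetase genes, whose symbols end in 2, and 3 scaffold genes. The rule uses no measured value, though it was set with earlier results of these data known.

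A synthetase joins an amino acid to its own transfer RNA (tRNA), which then delivers it to the ribosome. The cytosol and the mitochondria use separate sets of these enzymes, mostly encoded by separate nuclear genes, while KARS and GARS each serve both places. In the cytosol several synthetases sit in a multi-synthetase complex built on the 3 scaffold proteins, and uncharged tRNA activates the kinase GCN2 (EIF2AK4), which raises translation of the transcription factor ATF4. ATF4 in turn is known to raise transcription of many cytosolic synthetase genes.

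The cells carry the label A549, a human lung adenocarcinoma line, and all 3 groups were grown in the same medium. Control cells were untreated, a second group was given 10 mg/L of a nanomaterial called BPQD, which the labels do not spell out, and the third was given 100 mg/L of titanium dioxide (TiO2), each for 24 h. Each group had 3 input libraries, made from total RNA, and 3 libraries of RNA captured with an antibody against N6-methyladenosine (m6A), the commonest internal mark on messenger RNA, which makes 18 libraries in all. Nothing in the labels says whether the 3 libraries of a group came from separate cultures. A p-value for expression thus speaks only of the spread from library to library, which may be technical. The doses differ between the materials, so BPQD and TiO2 are set against each other as given, not at a matched dose.

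Expression was deposited as FPKM, fragments scaled to gene length and library size, in the 9 input libraries, and no read counts were used. Depth was estimated from the scarcest genes, taking the commonest ratio to control library 1 as that of 1 fragment in each library. It came to 0.794 to 1.13 times that of control library 1 over the 9 libraries. In each other library 104 to 142 genes lay at that ratio, of 1579 to 1997 such genes, so it rests on a minority of them. Log2 profiles of all tested genes correlated at 0.980 to 0.983 within groups and 0.966 to 0.975 between them. The label was checked against marker genes. KRT18, an epithelial keratin, was high (581 ± 1.75 FPKM in controls, SD, n = 3). Of 15 measured lung epithelial markers, 7 averaged at least 1 FPKM over the 9 input libraries. They were KRT18, KRT8, KRT7, ABCA3, MUC1, EPCAM and ALDH3A1. Among the rest, NKX2-1 and SFTPB were under 0.1 FPKM in every library. CDKN2A, a gene deleted in A549, stood at 24.2 ± 2.77 FPKM in controls, and exposed cells had 19.5 ± 0.380 FPKM (BPQD) and 20.9 ± 0.591 FPKM (TiO2; SD, n = 3 each). AKR1B10 and AKR1C1, enzymes abundant in A549, averaged 0.807 and 1.07 FPKM in controls. On account of CDKN2A, AKR1B10 and AKR1C1, the cells are called only the cells labelled A549.

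Of the 40 members, 33 had a promoter window in RefSeq (build GRCh38.p14), 250 bases before to 50 bases after an annotated start, in 45 windows; AARS2, DARS, LARS, VARS, VARS2 and YARS were among those with none. The letters TGATGNAA, which read the core of the C/EBP-ATF response element that ATF4 binds, were searched on both strands. They were in 3.62% of all 35116 windows and in the windows of 4.46% of 27305 genes. Among members, 7 of 16 cytosolic genes, 1 of 14 mitochondrial genes and 0 of 3 scaffold genes held them. The stretches are shown because they bear on the group of synthetases known as ATF4 targets. Each is 30 bases, read 5′ to 3′ on the strand that carries the letters, with the match in capitals:

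AARS: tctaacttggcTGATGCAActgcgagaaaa
CARS: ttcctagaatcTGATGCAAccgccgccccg
GARS: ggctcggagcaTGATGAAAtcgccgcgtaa
IARS: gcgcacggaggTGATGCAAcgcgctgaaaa
MARS: gaatccctcgcTGATGCAAccggaaccggc
NARS: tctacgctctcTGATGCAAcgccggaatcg
TARS: gctggaccagcTGATGCAAtcgaaaggcgc
YARS2: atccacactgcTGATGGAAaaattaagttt

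In GRCh38.p14 these lie at chr16:70289675-70289704 (+) for AARS, chr11:3057407-3057436 (+) for CARS, chr7:30594834-30594863 (−) for GARS and chr9:92293692-92293721 (+) for IARS. Those of MARS, NARS, TARS and YARS2 lie at chr12:57488053-57488082 (−), chr18:57621804-57621833 (−), chr5:33440956-33440985 (−) and chr12:32756076-32756105 (−). In 6 of the 8, all cytosolic, the variable letter was C. The matches of CARS, MARS, IARS, TARS, NARS and GARS began within 33 bases of the annotated start, and those of AARS and YARS2 lay 187 and 197 bases upstream. The E-box letters CACGTG, searched the same way, were in the windows of AIMP2, CARS2, EARS2, IARS and MARS2, 5 of the 33 members, and of 8.77% of all genes. The letters CCAAT were in the windows of 19 of the 33 members and 39.7% of all genes. A match describes the letters in the window and says nothing of binding.

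HARS and HARS2, which charge tRNA with histidine in the cytosol and the mitochondria, start back to back on chromosome 5 with 84 bases between their annotated starts. Their promoter windows share 184 bases. The stretch between the starts, chr5:140691371-140691454 on the plus strand, held 59.5% G and C and is shown because the 2 genes were called under different materials:

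HARS to HARS2: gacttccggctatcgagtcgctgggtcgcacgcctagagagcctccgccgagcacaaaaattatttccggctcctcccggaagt

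All 40 members passed the filter of a mean of at least 1 FPKM over the 9 input libraries. FPKM is scaled by gene length, so levels can be set side by side between genes. Cytosolic synthetases had mean levels of 7.16 (CARS) to 73.9 FPKM (EPRS), with a median of 38.0 FPKM over the 20 genes. Mitochondrial synthetases ran from 2.58 (PARS2, proline) to 48.6 FPKM (IARS2, isoleucine), with a median of 6.36 FPKM over the 17. The scaffold genes were at 16.1 (EEF1E1) to 22.9 FPKM (AIMP2). IARS2 was thus the only mitochondrial member above the cytosolic median in these libraries.

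**Figure D1:**
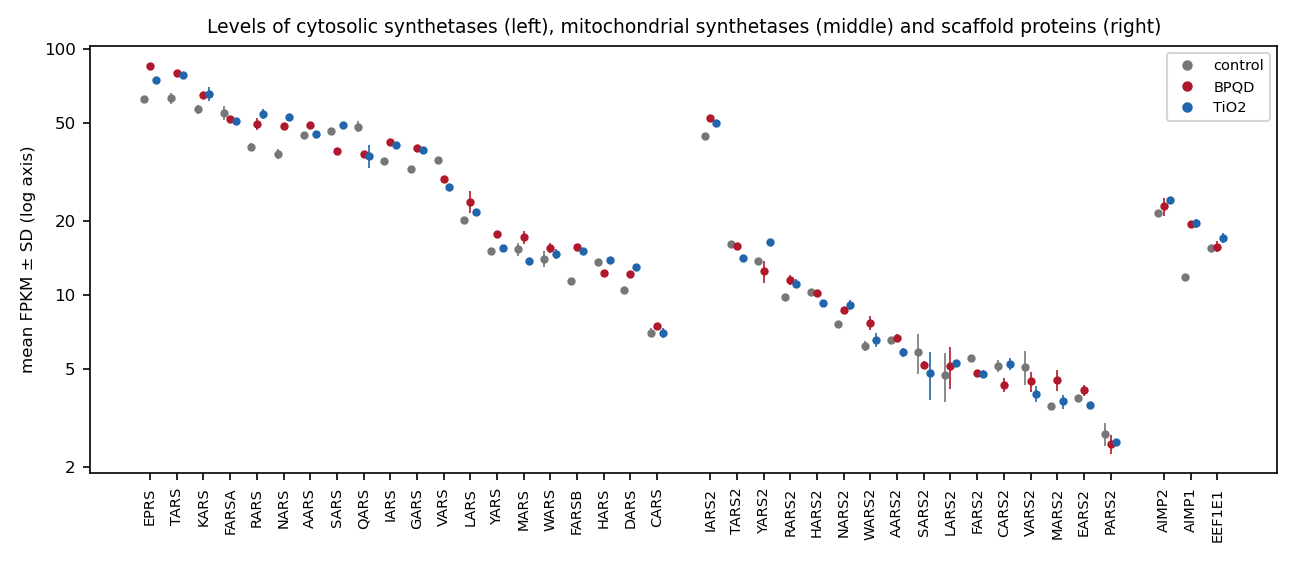
Mean FPKM ± SD (log axis, n = 3 input libraries a group) of 39 members in control, BPQD and TiO2 cells, ordered by mean level within the cytosolic, mitochondrial and scaffold genes. Most cytosolic genes lie above most mitochondrial genes, EPRS and TARS lead the cytosolic genes, and IARS2 stands apart from the other mitochondrial genes at 48.6 FPKM.

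Summed over the 20 cytosolic genes, expression was 662.9 ± 2.97 FPKM in controls, 736.1 ± 2.66 FPKM with BPQD and 728.0 ± 6.01 FPKM with TiO2 (SD, n = 3 each). The 17 mitochondrial genes summed to 162.1 ± 1.71, 177.7 ± 2.06 and 170.5 ± 2.96 FPKM, and the 3 scaffold genes to 48.7 ± 0.212, 57.98 ± 2.47 and 61.04 ± 1.51 FPKM. In each of these sums every exposed library lay above every control library. The median of the 17 mitochondrial genes in a library did not follow the sum: it was 6.30 to 6.53 FPKM in controls, 6.43 to 6.97 under BPQD and 5.602 to 6.054 under TiO2, where every library lay below the controls. Such a median is the value of a single gene, which was AARS2 in every TiO2 library, so it does not describe the mitochondrial genes as a whole. Among the mitochondrial genes IARS2 gained the most FPKM under TiO2, with an average of 44.0 FPKM in controls and 49.7 FPKM under TiO2. The others rose or fell by fewer FPKM. Bulk RNA cannot tell apart fewer cells that make a transcript from less of it in each cell.

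Under BPQD most cytosolic synthetases were higher and a smaller group was lower. Of the 20, 13 rose and 4 fell at a limma adjusted p under 0.05. Over all 12224 genes tested, 20.6% rose and 23.4% fell, 44.0% in either direction. These shares include many genes at lower levels. A fit of the 6504 genes averaging at least 5 FPKM took in all 20 and called 1715 higher and 1780 lower. Of the 20 it called 13 higher and 4 lower. The median log2 fold change, on the log2(FPKM + 1) scale used for every fold change here, was 0.19 over the 20 cytosolic genes and -0.01 over all genes tested. Control and BPQD libraries did not overlap for 18 of the 20, against 55.6% of all genes tested. AARS (alanine), DARS (aspartate), EPRS (glutamate and proline), FARSB (phenylalanine, β subunit), GARS (glycine), IARS (isoleucine), KARS (lysine), LARS (leucine), MARS (methionine), NARS (asparagine), RARS (arginine), TARS (threonine) and YARS (tyrosine) rose. HARS (histidine), QARS (glutamine), SARS (serine) and VARS (valine) fell, and CARS (cysteine), FARSA (phenylalanine, α subunit) and WARS (tryptophan) did not pass. Rescaled to TPM, CARS passed too (0.14, adjusted p = 0.0343).

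EPRS, the only human synthetase that serves 2 amino acids, stood at 63.8, 61.8 and 62.1 FPKM in the controls, 85.6, 84.7 and 83.4 under BPQD and 74.8, 75.8 and 72.9 under TiO2. The 3 groups did not overlap, and every TiO2 library lay between the controls and BPQD. Its log2 fold change was 0.43 ± 0.02 (SE) under BPQD (limma, adjusted p = 1.29e-05) and 0.25 ± 0.02 under TiO2 (adjusted p = 0.000165).

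FARSB stood at 11.3, 11.4 and 11.3 FPKM in the controls, 15.9, 15.4 and 15.6 under BPQD and 14.9, 15.1 and 15.2 under TiO2. All exposed libraries were above all controls, with log2 fold changes of 0.43 ± 0.02 under BPQD and 0.38 ± 0.02 under TiO2 (limma, adjusted p = 1.12e-05 and 2.18e-05). FARSA, which encodes the other subunit of the same enzyme, averaged 54.9 ± 3.72 FPKM in controls, 52.0 ± 1.26 under BPQD and 50.8 ± 0.511 under TiO2 (SD, n = 3). Its log2 fold changes of -0.08 and -0.11 did not pass (limma, adjusted p = 0.206 and 0.0981), though that of TiO2 did with quantile normalization (-0.15, adjusted p = 0.0302).

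QARS was the lowest-going member against control under either material. It stood at 45.7, 50.6 and 48.1 FPKM in the controls, 36.4, 38.0 and 37.7 under BPQD and 39.9, 38.0 and 32.2 under TiO2. All exposed libraries lay below all controls, with TiO2 library 3 lowest. The log2 fold changes were -0.36 ± 0.08 and -0.39 ± 0.08 (limma, adjusted p = 0.00646 and 0.00539).

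VARS stood at 34.9, 35.4 and 35.1 FPKM in the controls, 29.2, 29.7 and 29.8 under BPQD and 27.0, 26.7 and 28.2 under TiO2. The groups were in 3 separate steps, with log2 fold changes of -0.24 ± 0.03 and -0.35 ± 0.03 (limma, adjusted p = 0.000211 and 5.43e-05).

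SARS went apart under the 2 materials. It stood at 45.9, 47.7 and 45.0 FPKM in the controls, 37.8, 39.5 and 38.0 under BPQD and 50.4, 48.7 and 48.2 under TiO2. BPQD libraries were all below the controls and TiO2 libraries all above them. The fall under BPQD passed (-0.26 ± 0.03; limma, adjusted p = 0.000385), and the log2 fold change of 0.09 ± 0.03 under TiO2 did not (adjusted p = 0.0589). That of TiO2 did pass with a mean of at least 5 FPKM (adjusted p = 0.0485), with libraries centred on their medians (0.0460), rescaled to TPM (0.0329) and without control library 2 (0.0357).

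HARS was at 13.7, 13.8 and 13.4 FPKM in the controls, 11.8, 12.7 and 12.3 under BPQD and 14.2, 13.3 and 13.9 under TiO2. BPQD libraries lay below all others, a log2 fold change of -0.14 ± 0.03 against control (limma, adjusted p = 0.0102), while TiO2 gave 0.02 ± 0.03 (adjusted p = 0.733). With expression rescaled to TPM the BPQD change was -0.10 (adjusted p = 0.0556). Its back-to-back neighbour HARS2 had values of 10.2, 10.6 and 10.2 FPKM in the controls, 10.1, 10.4 and 9.97 under BPQD and 9.30, 9.27 and 9.38 under TiO2, so there the TiO2 libraries were the ones below all others. HARS2 changed by -0.02 ± 0.03 under BPQD (limma, adjusted p = 0.605), and fell under TiO2 by 0.13 ± 0.03 on the log2 scale (adjusted p = 0.00617). The table gives these genes overlapping ends, and whether counting used strand is not given in the sources used here.

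WARS, which interferon also induces, was at 14.7, 12.8 and 14.5 FPKM in the controls, 14.9, 15.2 and 16.3 under BPQD and 15.5, 14.3 and 14.3 under TiO2. The TiO2 libraries overlapped the controls and the BPQD libraries were just above them. Neither change passed (0.14 ± 0.06 and 0.07 ± 0.06; limma, adjusted p = 0.0958 and 0.418), though that of BPQD passed with expression rescaled to TPM (0.20, adjusted p = 0.0290). Of 9 other interferon-induced genes tested, 3 rose and 2 fell under BPQD, and 5 rose and 0 fell under TiO2. Among all genes 20.6% rose and 23.4% fell under BPQD, and 17.3% rose and 20.5% fell under TiO2. IFIT3, an interferon-induced antiviral protein, changed by 0.25 ± 0.07 under BPQD and 1.10 ± 0.07 under TiO2 (limma, adjusted p = 0.0212 and 3.74e-05).

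Among the remaining cytosolic members that rose under BPQD, log2 fold changes ran from 0.13 (AARS) to 0.37 (NARS). MARS (0.16 ± 0.05; limma, adjusted p = 0.0433) was the only one whose libraries overlapped the controls. Its adjusted p was between 0.0571 and 0.127 with no filter, with quantile normalization, with 6 libraries and without any library other than control library 3 or BPQD library 3. LARS, with BPQD values of 26.7, 22.7 and 22.4 FPKM over controls of 20.7, 19.9 and 19.9 FPKM, missed the threshold without control library 2 or 3 (adjusted p = 0.0509 and 0.0505).

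**Figure D2:**
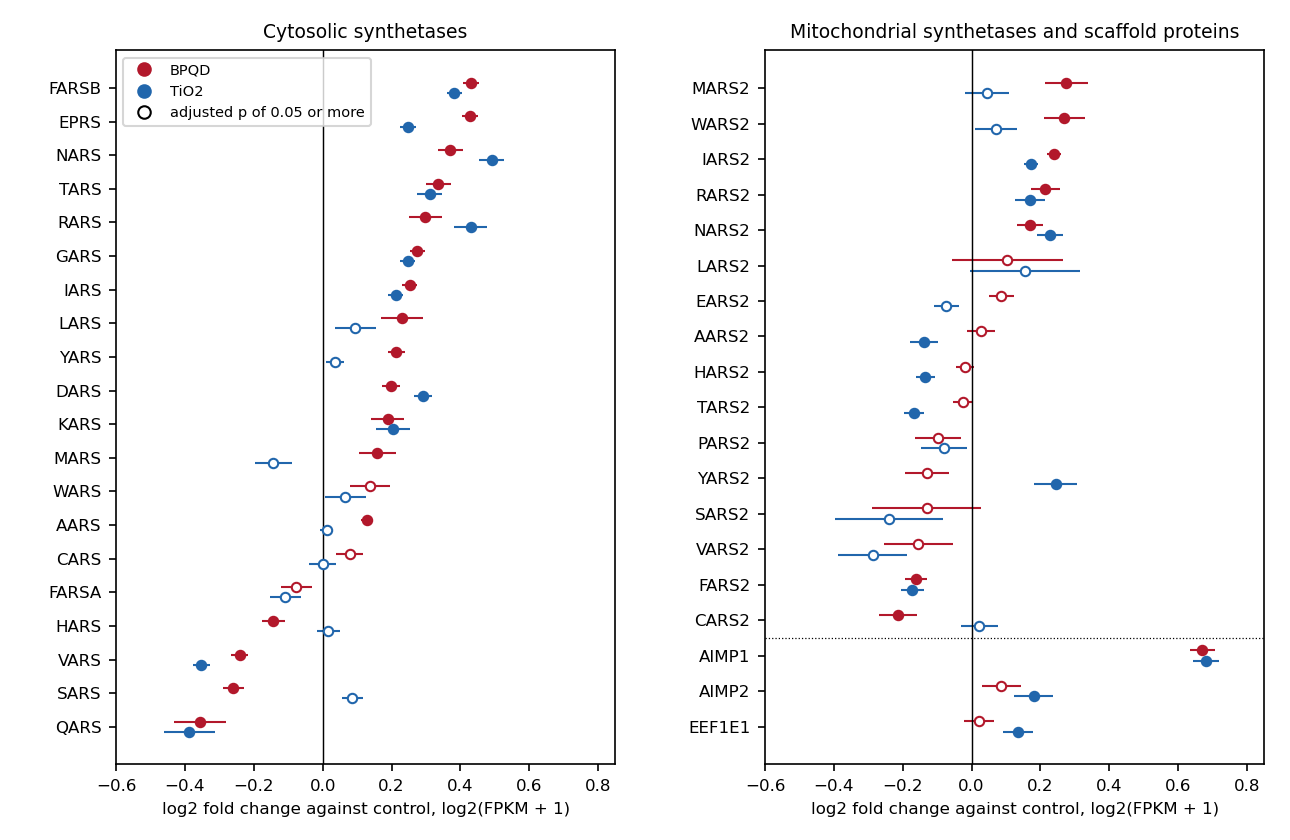
Log2 fold change against control ± SE on the log2(FPKM + 1) scale of 39 members under BPQD and TiO2, with cytosolic synthetases on the left and mitochondrial synthetases above scaffold genes on the right; open circles did not pass. AIMP1 is farthest right at 0.67 and 0.68, and QARS farthest left at -0.36 and -0.39. SARS, MARS, YARS2, HARS, CARS2, AARS2 and EARS2 are among those with the 2 materials on opposite sides of 0.

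Under TiO2, 9 of the 20 cytosolic synthetases rose and 2 fell, beside 17.3% and 20.5% of all genes tested (37.7% in either direction). The fit of the 6504 genes averaging at least 5 FPKM called 1607 higher and 1564 lower. Of the 20 it called 10 higher and 2 lower. The median log2 fold change was 0.09 over the 20 genes and -0.02 over all genes tested, and libraries did not overlap for 16 of the 20, against 51.7% of all genes. DARS, EPRS, FARSB, GARS, IARS, KARS, NARS, RARS and TARS rose, and QARS and VARS fell. Both exposures are measured against the same 3 control libraries, so their values are not independent. AARS, LARS, MARS and YARS passed under BPQD and not under TiO2, where their log2 fold changes were 0.01, 0.10, -0.14 and 0.04. Under TiO2, LARS passed without BPQD library 1 (adjusted p = 0.0227) and in the fit of 6 libraries (0.0363), and MARS passed as lower without BPQD library 3 (0.0452) or control library 1 (0.0459). Whether their changes differ between the materials is given with the direct comparison.

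NARS had the largest rise of the cytosolic genes under TiO2. It stood at 39.5, 36.1 and 36.5 FPKM in the controls, 48.2, 48.8 and 48.9 under BPQD and 51.7, 53.4 and 53.7 under TiO2. The groups formed 3 separate steps with TiO2 highest, and the log2 fold changes were 0.37 ± 0.04 and 0.49 ± 0.04 (limma, adjusted p = 0.000149 and 6.04e-05).

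RARS followed, with 39.2, 39.3 and 41.6 FPKM in the controls, 46.4, 50.6 and 51.4 under BPQD and 56.8, 53.8 and 52.2 under TiO2. TiO2 libraries were again above all others. The log2 fold changes were 0.30 ± 0.05 and 0.43 ± 0.05 (limma, adjusted p = 0.00186 and 0.000421).

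The mitochondrial synthetases also held calls in both directions. Under BPQD 6 of 17 rose and 2 fell, 47.1% in either direction beside 44.0% of all genes tested. Their median log2 fold change was 0.03, and libraries did not overlap for 9, against 55.6% of all genes, so both counts lay near the background. Under TiO2 5 rose and 4 fell, 52.9% beside 37.7% of all genes, with a median of 0.02 and no overlap for 11, against 51.7% of all genes. The difference between the compartments was not tested. IARS2, NARS2 and RARS2 were among those that passed as higher under each material, and FARS2, the mitochondrial phenylalanine enzyme, passed as lower under each. IARS2, the most abundant of them, averaged 44.0 ± 0.233 FPKM in controls, 52.1 ± 0.933 under BPQD and 49.7 ± 0.573 under TiO2 (SD, n = 3).

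CARS2 was the mitochondrial gene with the largest fall under BPQD. It was at 4.87, 5.44 and 5.15 FPKM in the controls, 4.62, 4.16 and 4.15 under BPQD and 5.22, 4.99 and 5.53 under TiO2, so only the BPQD libraries stood apart. The log2 fold changes were -0.21 ± 0.05 and 0.02 ± 0.05 (limma, adjusted p = 0.0151 and 0.782), and without control library 2 the former was -0.18 (adjusted p = 0.0503).

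FARS2 was at 5.44, 5.46 and 5.67 FPKM in the controls, 4.94, 4.72 and 4.84 under BPQD and 4.95, 4.77 and 4.64 under TiO2. Exposed libraries of both kinds shared a range below the controls, with log2 fold changes of -0.16 ± 0.03 and -0.17 ± 0.03 (limma, adjusted p = 0.00572 and 0.00519). TARS2, for threonine, was at 16.0, 16.1 and 16.1 FPKM in the controls, 15.5, 15.4 and 16.4 under BPQD and 13.9, 14.04 and 14.5 under TiO2. The TiO2 libraries lay below all others, while BPQD libraries lay on both sides of the controls. TiO2 gave a log2 fold change of -0.17 ± 0.03 (limma, adjusted p = 0.00337) against -0.02 ± 0.03 under BPQD (adjusted p = 0.547).

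TARS, the cytosolic threonine enzyme, rose under each material (0.34 ± 0.04 and 0.31 ± 0.04; limma, adjusted p = 0.000266 and 0.000502). The alanine pair also had unlike values: AARS changed by 0.13 under BPQD and 0.01 under TiO2, and AARS2 by 0.03 and -0.14 (limma, adjusted p = 0.628 and 0.0323). The call of AARS2 under TiO2 was lost with no filter and without TiO2 library 1 or 2 or control library 1 or 3 (adjusted p = 0.0653 to 0.0984). Calls that appeared without a library included those of EARS2 under BPQD without BPQD library 3 (0.12, adjusted p = 0.0227) and VARS2 under TiO2 without control library 1 (-0.35, adjusted p = 0.0487). EARS2 also passed under BPQD with TPM (adjusted p = 0.0226) and quantile normalization (0.0486). RARS2 under TiO2 missed the threshold without TiO2 library 2 or control library 2 (adjusted p = 0.0562 and 0.0556).

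All 3 scaffold genes passed as higher under TiO2, and AIMP1 alone under BPQD, where 17.3% and 20.6% of all genes did. AIMP1, which also yields a secreted cytokine, was at 12.1, 11.6 and 11.7 FPKM in the controls, 18.8, 19.6 and 19.8 under BPQD and 18.6, 20.1 and 20.1 under TiO2. Exposed libraries overlapped each other and were all above the controls. The log2 fold changes of 0.67 ± 0.04 and 0.68 ± 0.04 (limma, adjusted p = 1.43e-05 and 1.76e-05) were the largest of all 40 members.

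AIMP2 was at 20.9, 21.8 and 21.5 FPKM in the controls, 23.0, 24.7 and 20.8 under BPQD and 24.7, 24.7 and 23.7 under TiO2. EEF1E1 (AIMP3) was at 15.8, 15.4 and 15.2 FPKM in the controls, 16.2, 16.1 and 14.8 under BPQD and 16.8, 18.0 and 16.5 under TiO2. For both, BPQD overlapped the controls and TiO2 did not. AIMP2 rose under TiO2 by 0.18 ± 0.06 and EEF1E1 by 0.13 ± 0.04 (limma, adjusted p = 0.0372 and 0.0460). These calls were not firm: AIMP2 missed the threshold without any control or TiO2 library and without BPQD library 1, and EEF1E1 without any control or TiO2 library and without BPQD library 1 or 2 (adjusted p up to 0.1005 for AIMP2 and 0.129 for EEF1E1). With no filter neither passed (0.0936 and 0.109), nor did EEF1E1 with quantile normalization (0.0835). Under BPQD, AIMP2 passed without BPQD library 3 (0.15, adjusted p = 0.0256).

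**Figure D3:**
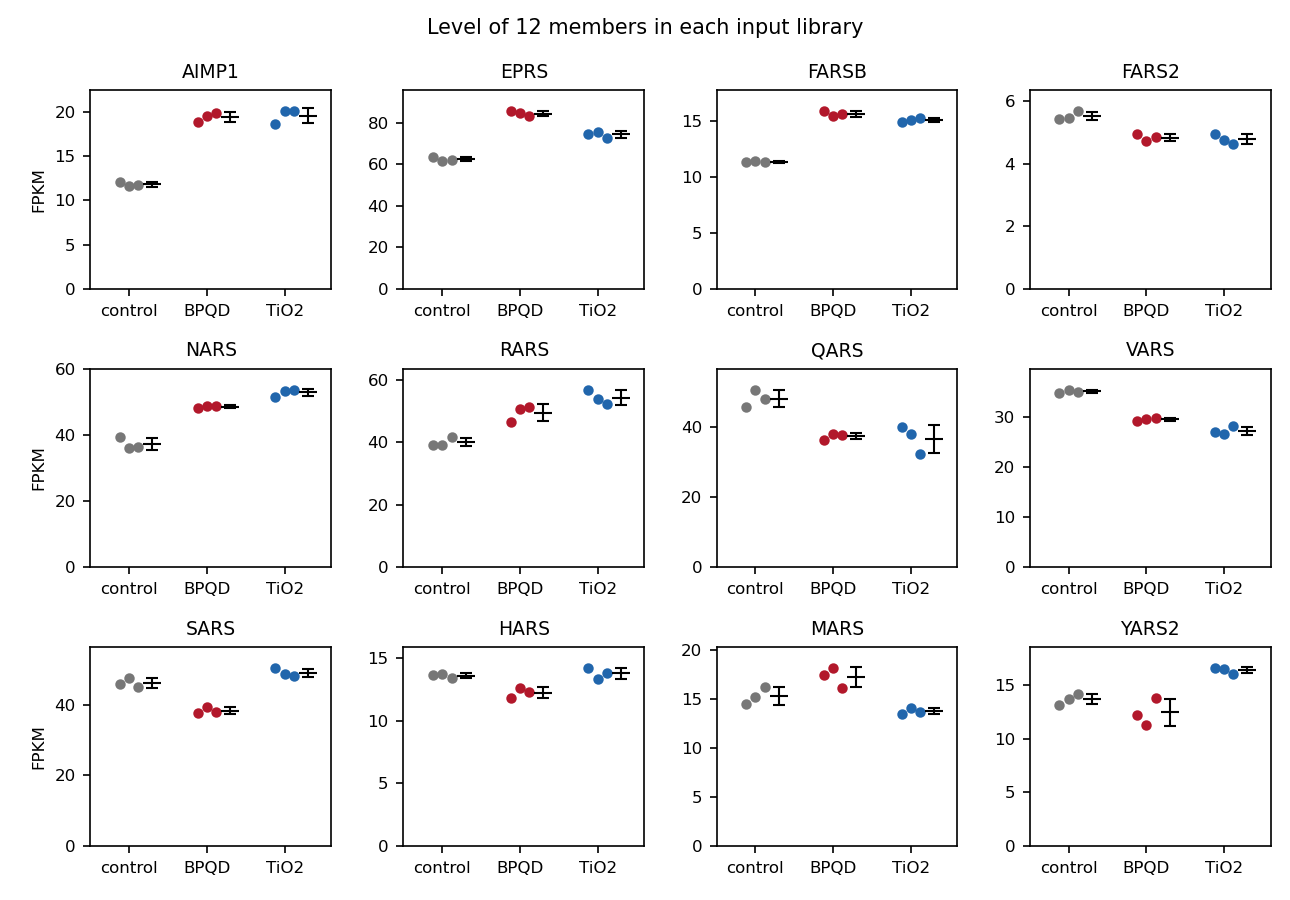
FPKM of 12 members in each input library (points, 3 a group) with the group mean ± SD (bar) and axes from 0. AIMP1, EPRS, FARSB, NARS and RARS are above the controls in every exposed library, QARS, VARS and FARS2 below them, and SARS is below under BPQD alone.

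The 8 synthetases known to sit in the multi-synthetase complex, EPRS, IARS, LARS, MARS, KARS, RARS, DARS and QARS, gave 7 rises and 1 fall under BPQD and 5 rises and 1 fall under TiO2. The fall was QARS in each case. Their median log2 fold changes were 0.21 and 0.21. The 12 cytosolic synthetases outside it gave 6 rises and 3 falls under BPQD and 4 and 1 under TiO2, with medians of 0.13 and 0.05. Over all genes tested 20.6% rose and 23.4% fell under BPQD, and 17.3% rose and 20.5% fell under TiO2. By structural class, 5 of 9 class I genes rose and 2 fell under BPQD, and 7 of 10 class II genes rose and 2 fell. Under TiO2 the counts were 2 and 2 of 9, and 6 and 0 of 10. EPRS, which belongs to both classes and rose under each material, is in neither class count.

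Cytosolic synthetases listed as ATF4 targets numbered 12. Of these 9 rose and 1 (SARS) fell under BPQD, with a median of 0.22, and 5 rose and 0 fell under TiO2, with a median of 0.09. In either direction 83.3% were called under BPQD and 41.7% under TiO2, beside 44.0% and 37.7% of all genes tested. The 8 not so listed gave 4 rises and 3 falls under BPQD, median 0.06, and 4 and 2 under TiO2, median 0.11, which is 87.5% and 75.0% called. Of the 7 cytosolic genes with TGATGNAA in the window, 6 rose and 0 fell under BPQD and 4 rose and 0 fell under TiO2. The 9 cytosolic genes with a window and no match gave 4 rises and 3 falls under BPQD and 4 and 1 under TiO2, where all genes gave 20.6% and 23.4%, and 17.3% and 20.5%. None of these splits was tested, and the lists were drawn up with earlier results of these data known.

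ATF4 itself was at 114.0, 115.0 and 112.0 FPKM in the controls, 144, 149 and 145 under BPQD and 107.9, 109.7 and 111.6 under TiO2. The BPQD libraries lay above all others, and the TiO2 libraries just below the controls. The log2 fold changes were 0.36 ± 0.02 and -0.05 ± 0.02 (limma, adjusted p = 2.15e-05 and 0.106), and BPQD exceeded TiO2 by 0.41 ± 0.02 (adjusted p = 1.25e-05). ASNS, an asparagine synthetase and ATF4 target that is no tRNA ligase, was at 2.84 ± 0.305 FPKM in controls, 4.70 ± 0.403 under BPQD and 2.90 ± 0.475 under TiO2 (SD, n = 3). It rose under BPQD alone (0.57 ± 0.10; limma, adjusted p = 0.00286), and the difference between the materials passed (0.55 ± 0.10, adjusted p = 0.00396).

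DDIT3, the stress factor CHOP, went otherwise, with 4.09, 3.46 and 6.55 FPKM in the controls, 4.62, 3.60 and 5.14 under BPQD and 6.73, 6.92 and 11.3 under TiO2. TiO2 libraries were highest but 2 of them only just exceeded control library 3. Neither change against control passed (-0.04 ± 0.25 and 0.71 ± 0.25; limma, adjusted p = 0.918 and 0.0550), and TiO2 exceeded BPQD (-0.75 ± 0.25 for BPQD minus TiO2, adjusted p = 0.0460). TRIB3, an ATF4-induced pseudokinase, rose by 0.27 ± 0.05 under each (limma, adjusted p = 0.00370 and 0.00438).

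Across 17 genes of GCN2 and stress signalling, 7 rose and 2 fell under BPQD and 5 rose and 2 fell under TiO2. These are 52.9% and 41.2%, beside 44.0% and 37.7% of all genes tested. EIF2B1 and EIF2S1, parts of the initiation factors on which the kinases act, rose by 0.32 each under BPQD. PPP1R15A, a phosphatase subunit that reverses the kinases, and EIF2B3 rose by 0.43 and 0.29 under TiO2, and GCN1, the GCN2 activator, changed by -0.33 under TiO2 and -0.01 under BPQD. Of 21 ATF4 targets that are not synthetases, 9 rose and 7 fell under BPQD and 6 rose and 7 fell under TiO2, which is 76.2% and 61.9% called. SLC7A11, a cystine carrier, rose by 0.67 under BPQD and PCK2, a mitochondrial enzyme of carbon metabolism, fell by 0.58. STC2, a secreted glycoprotein, rose by 0.63 under TiO2, while PHGDH, the entry enzyme of serine synthesis, and SESN2 fell by 0.36 and 0.33. The list as a whole thus held calls in both directions.

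Downstream of charging, 1 of 8 delivery factors rose and 3 fell under each material, 4 of 8 called beside 44.0% of all genes under BPQD and 37.7% under TiO2. EEF1A1, which carries charged tRNA to the ribosome, stood at 1079 ± 5.05 FPKM in controls, 1298 ± 10.9 under BPQD and 1271 ± 0.849 under TiO2 (SD, n = 3) and rose by 0.27 and 0.24. EEFSEC, the carrier of selenocysteine tRNA, fell by 0.54 and 0.24, EEF1D fell by 0.42 under BPQD, and EEF1A2 fell by 0.46 under TiO2. Among 13 genes of tRNA processing and export, 4 rose and 2 fell under BPQD and 3 rose and 0 fell under TiO2. The calls came to 46.2% and 23.1%, near and below the shares of all genes. SSB, the La protein that binds new tRNA, rose by 0.47 and 0.44, and XPOT, the tRNA exporter, by 0.39 and 0.25. TSEN15, a tRNA splicing subunit, rose by 0.32 under BPQD and RTCB, the tRNA ligase, by 0.07 under TiO2. Of 11 related enzymes of tRNA aminoacylation, 3 rose and 2 fell under BPQD (45.5%) and 1 rose and 0 fell under TiO2 (9.09%). That gene, QRSL1, a subunit of the mitochondrial amidotransferase that makes glutamine tRNA, rose by 0.35 and 0.25, and DTD2 and GATC rose by 0.23 and 0.21 under BPQD.

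Markers of other states moved in the same libraries. The 15 measured lung epithelial markers summed to 1174 to 1261 FPKM in controls, 867.2 to 887.9 under BPQD and 967.3 to 1062 under TiO2. Nearly all of this sum was the keratins KRT18, KRT8 and KRT7. Of the 7 epithelial markers that were tested, 6 fell under BPQD and 5 under TiO2, beside 23.4% and 20.5% of all genes. The 6 leukocyte markers summed to 11.4 to 13.6, 11.9 to 13.1 and 17.8 to 23.2 FPKM, mostly CD68, with PTPRC, LYZ and CD3E under 0.1 FPKM throughout. The 8 fibroblast markers summed to 29.3 to 29.8, 13.9 to 24.8 and 28.0 to 37.7 FPKM, mostly LUM, with PDGFRA under 0.1. The 5 endothelial markers summed to 3.05 to 3.70, 1.22 to 1.36 and 2.15 to 3.94 FPKM, mostly CDH5, with VWF, TEK and KDR under 0.1. The part of these markers in the changes of the synthetases was not tested.

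Set directly against TiO2, BPQD gave higher values for 5 cytosolic synthetases and lower values for 4, beside 19.0% and 18.6% of all genes tested (37.6% in either direction). Rescaled to TPM, these counts were 8 and 2, with FARSB, GARS and IARS added and DARS and NARS lost. The median was 0.04 over the 20 genes and 0.00 over all genes, and libraries of the 2 groups did not overlap for 14 of them, against 51.1% of all genes. AARS, EPRS, MARS, VARS and YARS were higher under BPQD, and DARS, HARS, NARS and SARS were lower. Of the mitochondrial synthetases 8 were higher and 2 lower, with a median of 0.11. AARS2, EARS2, HARS2, IARS2, MARS2, TARS2 and WARS2 were among the higher ones, and CARS2 and YARS2 the lower. No scaffold gene passed. Of the cytosolic genes that rose under BPQD and not TiO2, AARS, MARS and YARS thus differed between the materials, and LARS did not pass (0.14 ± 0.06; limma, adjusted p = 0.120).

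YARS2, for mitochondrial tyrosine, gave the widest gap. Its values were 13.2, 13.7 and 14.1 FPKM in the controls, 12.2, 11.3 and 13.8 under BPQD and 16.6, 16.5 and 16.1 under TiO2. TiO2 lay above all others, and BPQD overlapped the controls. The difference was -0.37 ± 0.06 for BPQD minus TiO2 (limma, adjusted p = 0.00259). Against control it rose under TiO2 (0.24 ± 0.06, adjusted p = 0.0178), a call that was lost without TiO2 library 1 or 2 or control library 1 (adjusted p = 0.0512 to 0.0576). Without BPQD library 3 it passed as lower under BPQD (-0.20, adjusted p = 0.0125). YARS, for the same amino acid in the cytosol, differed the other way (0.18 ± 0.02, adjusted p = 0.00112).

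SARS came next among the lower genes, at -0.35 ± 0.03 (limma, adjusted p = 0.000124), then CARS2 at -0.24 ± 0.05 and HARS at -0.16 ± 0.03 (adjusted p = 0.0115 and 0.00734). MARS led the higher genes. It was at 14.5, 15.2 and 16.3 FPKM in the controls, 17.4, 18.1 and 16.1 under BPQD and 13.5, 14.1 and 13.7 under TiO2, where TiO2 lay below all other libraries. BPQD exceeded TiO2 by 0.30 ± 0.05 (limma, adjusted p = 0.00329).

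MARS2 was at 3.53, 3.60 and 3.51 FPKM in the controls, 4.59, 4.05 and 4.90 under BPQD and 3.82, 3.85 and 3.41 under TiO2, with BPQD above all others. WARS2 was at 5.98, 6.53 and 6.15 FPKM in the controls, 7.96, 7.11 and 8.06 under BPQD and 6.15, 6.59 and 7.02 under TiO2, likewise with BPQD highest. Both rose under BPQD (0.28 ± 0.06 and 0.27 ± 0.06; limma, adjusted p = 0.00954 and 0.00832). Their differences from TiO2, 0.23 ± 0.06 and 0.20 ± 0.06 (adjusted p = 0.0237 and 0.0338), were lost without a library: MARS2 without BPQD library 1 or 3 or TiO2 library 3 (adjusted p up to 0.0727), and WARS2 without BPQD library 1 or 3, TiO2 library 1 or 2 or control library 3 (up to 0.102). Both were also lost in the fit of 6 libraries (0.0597 and 0.0625), and WARS2 with no filter (0.0661). DARS and NARS lost this call without any BPQD library and without TiO2 library 2 or 3 (adjusted p up to 0.0756 and 0.0903). Both lost it with median centring (0.0633 and 0.0689) and TPM (0.138 and 0.102), and NARS with no filter (0.0607). With quantile normalization the difference of NARS was -0.06 (adjusted p = 0.284) in place of -0.12. IARS2 lost it without BPQD library 1 or 2 or TiO2 library 1 or 3 (up to 0.0919), with 6 libraries (0.0665) and with no filter (0.0510), and AARS2 without BPQD library 2 or TiO2 library 2 (0.0508 and 0.0503). AIMP2 gained it without BPQD library 2 (-0.15, adjusted p = 0.0449).

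**Figure D4:**
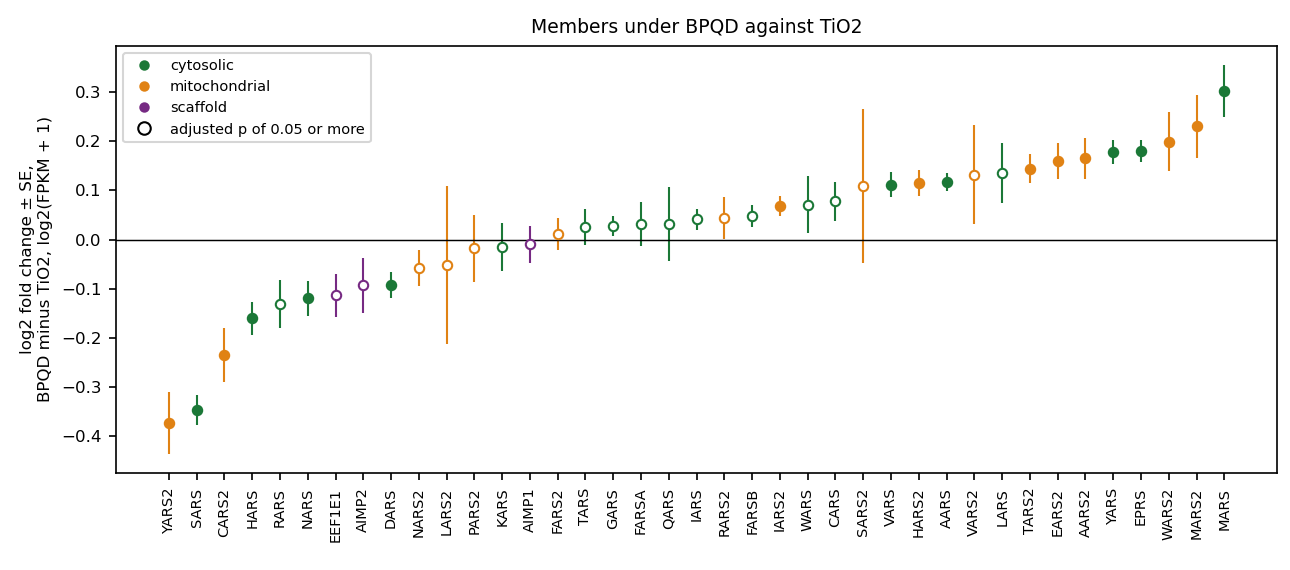
Log2 difference ± SE, BPQD minus TiO2, on the log2(FPKM + 1) scale for 39 members in rising order, coloured by compartment; open circles did not pass. YARS2 and SARS lie lowest at -0.37 and -0.35, MARS highest at 0.30, and 7 of the mitochondrial genes shown passed above 0.

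The m6A data came as the authors' own tables of peaks, 14903 for BPQD and 12888 for TiO2 after 3 repeated lines were removed. Each peak has a fold change of enrichment against control and a p-value, with the replicates pooled. Per-sample columns beside them were not used. Folds and p-values below are the authors', and positions match GRCh38. Whether these p-values take in the spread from library to library is not given in the sources used here. Members had 33 peaks in 21 genes in the authors' deposited table for BPQD and 27 peaks in 21 genes in that for TiO2. Peaks lay in 26 members in either table and in 16 in both. The 14 with none were AIMP1, AIMP2, DARS, EPRS, HARS2, IARS, IARS2, MARS2, NARS, PARS2, RARS, RARS2, TARS2 and VARS. The authors placed 9 member peaks of the BPQD table in a 5′ UTR, 16 in a 3′ UTR and 8 in another exon, and 13, 10 and 4 of the TiO2 table.

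In the authors' deposited table for BPQD 25 of the 33 peaks had p under 0.05, 14 higher and 11 lower. That is 75.8%, beside 64.8% of all peaks in the table (37.7% higher and 27.1% lower). For TiO2 the authors' deposited table gave 19 of 27, 9 higher and 10 lower, which is 70.4% beside 64.1% of all peaks (40.3% higher and 23.8% lower). Median log2 fold changes of member peaks were 0.08 and -0.08, against 0.16 and 0.15 over all peaks, in the authors' deposited tables. Both tables share the control libraries.

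SARS carried the strongest of these calls. Its 5′ peak, chr1:109213918-109215141, had a log2 fold change of 0.58 (p = 5.01e-57) under BPQD and, with a slightly earlier end, 0.32 (p = 7.94e-19) under TiO2 in the authors' deposited tables. The peak at its 3′ end, chr1:109237735-109238182 in the authors' deposited table for BPQD, went 0.23 there (p = 2.51e-12) and -0.11 in that for TiO2 (p = 0.000282). SARS transcript itself fell under BPQD, as given above.

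By p, lower m6A under each material was listed for KARS, FARSA, GARS, QARS, NARS2 and SARS2. In the authors' deposited tables the score, log10 of the false discovery rate, was -1.02 (BPQD) and -0.934 (TiO2) for NARS2. For KARS under TiO2 it was -1.29. At the false discovery rate threshold used among the alternatives below, NARS2 thus kept neither call and KARS that of BPQD alone. The KARS 5′ UTR peak, chr16:75642779-75644286, had -0.56 (p = 1.55e-09) and -0.21 (p = 0.00794) in the authors' deposited tables for BPQD and TiO2. FARSA had -0.46 (p = 8.32e-09) and -0.20 (p = 0.00200) in its 5′ UTR in the authors' deposited tables. These FARSA peaks overlap but differ in width, at 196 bases for BPQD and 3026 for TiO2. The NARS2 peaks likewise had 1147 and 300 bases, so neither pair compares the materials over the same stretch. The 3′ UTR peak of GARS, chr7:30632408-30634033, had -0.18 (p = 7.59e-06) and -0.30 (p = 5.01e-16), and that of QARS -0.26 (p = 1.45e-05) and -0.24 (p = 2.95e-05), in the authors' deposited tables. KARS and GARS transcripts rose and QARS transcript fell, so the lower mark stood beside a higher level in the first 2 and a lower level in the last.

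By p, higher m6A under each material was listed for FARS2, CARS2, LARS, EARS2 and LARS2 among the genes besides SARS. In the authors' deposited table for BPQD the score was -1.17 for the CARS2 peak paired with TiO2 and -1.04 for LARS2. At the same false discovery rate threshold these peaks kept only the call of TiO2. The second exon peak of CARS2, given below, scored -1.02 and did not pass it. FARS2 had 0.33 (p = 2.34e-07) and 0.24 (p = 7.94e-05) in a block of 35867 bases, chr6:5368705-5404571, in the authors' deposited tables. CARS2 had 0.21 (p = 0.0138) and 0.26 (p = 0.00240) in the authors' deposited tables, and a second exon peak at 0.93 (p = 0.0219) in that for BPQD. The 3′ UTR peaks of LARS, EARS2 and LARS2 had 0.14, 0.11 and 0.08 under BPQD and 0.27, 0.20 and 0.18 under TiO2 in the authors' deposited tables, with p from 1.62e-06 to 2.04e-07 for TiO2 and from 0.00331 to 0.0204 for BPQD.

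A second 5′ UTR peak of LARS went the other way in the authors' deposited table for BPQD (-0.64, p = 0.0191). TARS had 3′ UTR peaks called in both tables that did not overlap, at 0.66 (p = 0.0240) for BPQD and at -0.22 (p = 6.31e-12) and -0.83 (p = 0.0240) for TiO2 in the authors' deposited tables. Other members had peaks called in a single table. For BPQD the authors' deposited table listed AARS2 at 0.28 (p = 7.24e-08), AARS at 0.10 (p = 0.00102), CARS at -0.15 (p = 0.00112) and YARS at -0.23 in an exon (p = 0.00123) and 0.12 in its 3′ UTR (p = 0.0234). The authors' deposited table for BPQD also listed VARS2 at -0.19 (p = 0.0447) and an exon of WARS2 at 1.01 (p = 0.0302). That VARS2 peak, placed in a 3′ UTR, also overlaps GTF2H4, an expressed gene on the same strand, so it may belong to either gene. For TiO2 the authors' deposited table listed HARS at 0.26 (p = 0.00135) and YARS2 at -0.47 (p = 0.0309), each in its 5′ UTR. A peak that is in a single table was not compared with the other material. Of the calls by p in this paragraph, those of LARS, VARS2, WARS2 and YARS2 missed the false discovery rate threshold. So did the 3′ UTR peak of YARS and the TARS peaks at 0.66 and -0.83. In 3 peaks less than 50% of the bases lay inside the member, among them peaks of KARS with TERF2IP (2.74%) and of WARS with WDR25 (6.85%). A peak assigned to MARS overlaps DDIT3 on the opposite strand and did not pass in the authors' deposited table for TiO2 (p = 0.107).

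**Figure D5:**
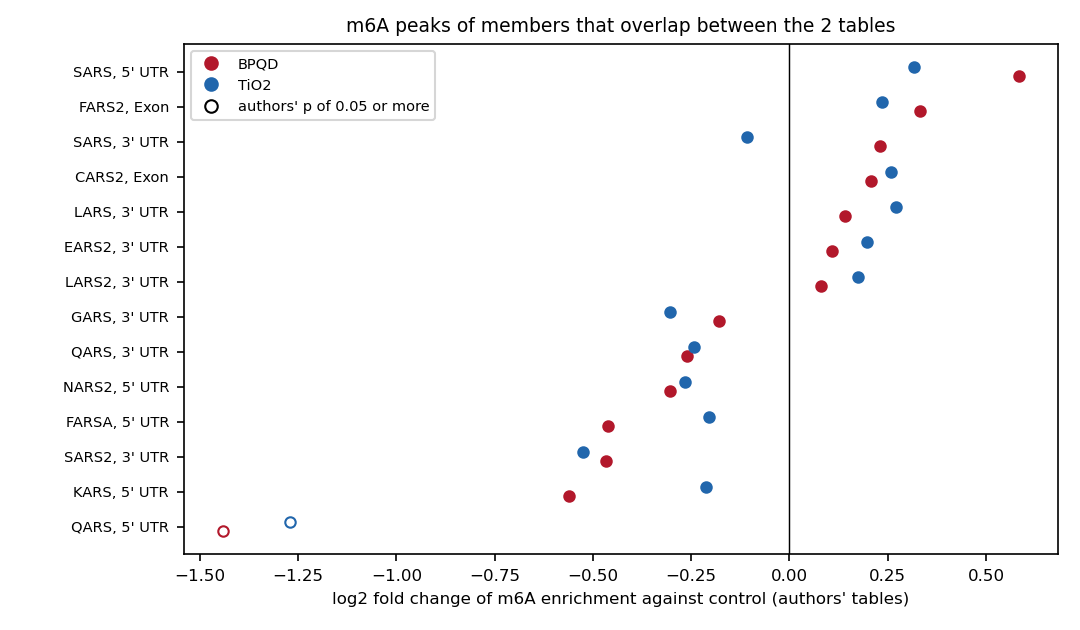
Log2 fold change of m6A enrichment against control in the authors' deposited tables for 14 pairs of overlapping member peaks, in 12 genes, under BPQD and TiO2; open circles have p of 0.05 or more. SARS is farthest right at 0.58 and 0.32 in its 5′ UTR, and its 3′ UTR peak has the 2 materials on opposite sides of 0.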

How the data were processed

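Total RNA and m6A-captured RNA of 3 groups of cells labelled A549 gave 18 libraries. The authors deposited FPKM per gene for the 9 input libraries; the submitters' processing notes name HISAT2, StringTie 1.3.0 and the build mm10, although the gene IDs are human and all 40 members overlap their GRCh38.p14 positions in RefSeq. Strand use was not given in the sources used here. Per peak, the authors' deposited tables list enrichment as a log2 fold change, its p-value and a score, log10 of the false discovery rate; they pool the replicates, give no strand, and their 12 per-sample columns were not used. Which tool called the peaks was not given in the sources used here.

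Genes averaging 1 FPKM or more in the 9 libraries, 12224 in all, were tested with limma 3.58.1 (trend, two-sided) on log2(FPKM + 1), all 9 libraries in one fit, with Benjamini-Hochberg adjustment over all genes tested and a threshold of 0.05. The pseudocount of 1 understates changes of low genes. A count model was not used because the values are FPKM. A fold change between libraries, log2 or otherwise, is relative to the authors' scaling. A group of libraries overlaps another where their ranges meet. Peaks were paired between tables where they shared at least 1 base.

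Values in all 9 libraries are given for the 4 called members with the largest rise and the 4 with the largest fall in each comparison whose libraries do not overlap, the scaffold genes and WARS; from other lists up to 3 called genes a comparison, plus ATF4, DDIT3, ASNS and TRIB3; HARS2, LARS, LARS2, SARS2, GATB and other members' values were added after they were seen. The values of 1 member, which stays in the counts and sums, are not reported here. The members and lists were chosen with earlier results of these data known. Alternatives were a pseudocount of 0.1, a minimum of 5 FPKM or none, median centring, quantile normalization, rescaling to TPM, a replicate block, a fit of 6 libraries, leaving out each library, and stricter peak thresholds. Sequences are from RefSeq (GRCh38.p14). Analysis used R 4.3.3 and Python 3.11.15.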

Additional observations from a re-analysis of the deposited data

How the results depend on the processing

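Depth is known only as an estimate relative to control library 1, so no counting error could be given. With 3 libraries a group the spread is known only roughly. Leaving out a library in turn gave 11 to 13 cytosolic rises under BPQD, 9 to 10 under TiO2 and 5 to 5 for BPQD over TiO2, with 4 to 4, 2 to 3 and 2 to 4 falls. For mitochondrial genes the ranges were 6 to 7, 3 to 5 and 5 to 8 rises, and 1 to 3, 3 to 4 and 2 to 2 falls. The mitochondrial falls became 1 under BPQD and 1 for BPQD against TiO2 with a mean of at least 5 FPKM, which tests 12 of the 17. For BPQD against TiO2 the cytosolic falls became 2 with median centring, 2 with the replicate block and 2 with TPM, the cytosolic rises 8 with TPM, and the mitochondrial rises 5 with only 6 libraries. Called member peaks in the authors' deposited tables became 16 for BPQD at a false discovery rate under 0.05, 16 at p under 0.01 and 1 at a log2 change of at least 1, and 0 for TiO2 at that size. Other counts of called members and peaks stayed within 1.5 times.

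Same-numbered libraries did not deviate together (correlations of -0.0830 to 0.0733 over 9 pairs, -0.0788 to 0.0842 over 18 with different numbers), so no pairing by number was seen. Whether same-numbered libraries were prepared together is not given in the labels and cannot be read from these correlations. With the number as a replicate block the cytosolic rises and falls were 12 and 4 under BPQD, and all-gene calls were 4996, 4160 and 4150 in place of 5384, 4614 and 4596. The block ended the calls of MARS under BPQD (adjusted p = 0.0741), AARS2 under TiO2 (0.0689) and, for BPQD against TiO2, DARS, NARS, MARS2 and WARS2 (0.0613, 0.0707, 0.0572 and 0.0577). TPM shifted the median of all genes most, by 0.05 under BPQD, and moved the share of higher calls from 46.9% to 58.3% there and from 50.5% to 60.5% for BPQD against TiO2, where no filter gave 61.5%.

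Over the fold changes of single members, settings other than leaving out a library kept direction and side of the threshold in 897 cases, lost the call in 25, gained it in 12 and turned the sign in 11; leaving out a library gave 996, 58, 9 and 17. No sign turned for a change that passed, and the causes were not tested. Under BPQD, HARS2 came to 0.0038 (median centring) and 0.0349 (TPM) and TARS2 to 0.0304 (TPM), and without a library LARS2 ran from -0.0599 to 0.2451. Under TiO2, AARS came to -0.0287 (quantile normalization), and without a library CARS ran from -0.031 to 0.0224, HARS from -0.0028 to 0.0392, CARS2 from -0.0115 to 0.0557 and LARS2 from -0.0083 to 0.2523. For BPQD against TiO2, median centring, quantile normalization and TPM gave 0.0062, 0.0169 and 0.0294 for AIMP1 and 0.0009, 0.0108 and 0.0246 for KARS, and TPM gave 0.0133 for PARS2. There, without a library, AIMP1 ran from -0.0449 to 0.0104, KARS from -0.0593 to 0.0298, QARS from -0.0567 to 0.093, FARS2 from -0.007 to 0.0315, LARS2 from -0.1494 to 0.09, PARS2 from -0.0615 to 0.0266 and SARS2 from -0.0458 to 0.2225.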

Other observations

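Among the 40 members, LARS2 and SARS2 had the widest spread within groups on the log2 scale. LARS2, for mitochondrial leucine, was at 3.52, 5.22 and 5.49 FPKM in the controls and 5.98, 5.47 and 4.01 under BPQD, while its 3 TiO2 libraries lay between 5.23 and 5.39 FPKM. SARS2, for mitochondrial serine, was at 6.42, 4.60 and 6.53 FPKM in the controls and 3.64, 5.09 and 5.73 under TiO2. Their log2 fold changes had standard errors of 0.16, and neither gene passed in any of the 3 comparisons.

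GATC, with QRSL1 and GATB a subunit of the mitochondrial amidotransferase, rose by 0.21 under BPQD while GATB fell by 0.19 (limma, adjusted p = 0.0339 and 0.0300). TUFM, the mitochondrial carrier of charged tRNA, was at 189.5 ± 0.469 FPKM in controls, 184.9 ± 3.53 under BPQD and 166.5 ± 2.17 under TiO2 (SD, n = 3), and fell under TiO2 by 0.19 on the log2 scale (limma, adjusted p = 0.000251).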
